A study of Mus musculus with 8 samples.

Results

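The Hedgehog pathway genes described here are Shh, Ptch1, Gli1, Gli2, Gli3, Smo, Sufu, Hhip and Gas1. These 9 genes were chosen by symbol, with earlier results of these data known. All 9 were found among the 28792 gene symbols of each of the 2 deposited expression tables. The libraries came from hair follicle stem cells of the bulge, the reservoir of cells in the resting follicle from which each new hair is rebuilt, isolated by cell sorting from the back skin of mice. Of the 8 samples of the series, 4 were RNA sequencing libraries with 1 library in each group, and the other 4, from chromatin immunoprecipitation, were left out. The first comparison set Ctnnb1 cKO cells (K15CrePGR;Ctnnb1fl/fl; Rosa-YFPfl/stop/fl) against Ctnnb1 Het cells (K15CrePGR;Ctnnb1+/fl; Rosa-YFPfl/stop/fl), both from C57BL6/129Sv females of day 99. Ctnnb1 encodes β-catenin, which carries the canonical Wnt signal to the nucleus. Both groups carried the Cre transgene, named for the keratin 15 promoter and a fusion of Cre to the progesterone receptor, and the YFP reporter, so the Het cells were not wild type. The second comparison set LacZ-positive against LacZ-negative bulge cells of C57BL6 males of day 24 whose follicles were leaving rest (telogen) for growth (anagen). All of these mice were Axin2LacZ/+, and the cells were separated by the activity of the LacZ reporter at Axin2, a feedback target of Wnt signalling. For the first pair the labels name telogen in one field and the start of anagen in another, and neither pair's labels say whether a library held cells of 1 mouse or of several.

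Hedgehog ligands are secreted proteins that bind the receptor Patched on the receiving cell. In the absence of ligand, Patched 1, encoded by Ptch1, keeps the membrane protein Smoothened (Smo) inactive, and Sufu holds the GLI transcription factors back in the cytoplasm. Ligand binding frees Smoothened to act at the primary cilium, where GLI proteins are turned into activators. Gli1, Ptch1 and Hhip are themselves transcribed in response, so that their transcripts are commonly used as readouts of the signal. In the hair follicle, Shh made by progenitor cells of the growing follicle is known as a driver of proliferation at the start of anagen.

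Values are FPKM, fragments scaled to transcript length and library size, so levels of different genes can be set side by side within a library. No read numbers can be had from FPKM, so depth is unknown, and with 1 library per group no difference below has a replicate check or a test. Differences are the log2 of (FPKM + 1) in one library over that in the other, taken for genes that reached 1 FPKM in at least 1 library of the pair, and a difference of 1 or more in size is called 2-fold. The targeted gene did not check the genotype labels: Ctnnb1 stood at 370 FPKM in the cKO library and 251 FPKM in the Het library, and a value for the whole gene does not resolve the floxed part. The interval of Ctnnb1 is given to 4 genes, so fragments of its neighbours could enter its value. Its level ran opposite to a loss, so the cKO library and the Het library mean below the libraries labelled so. Each direction in that pair rests on those labels. Axin2, a Wnt target, had 2.12 FPKM in the cKO library and 16.3 FPKM in the Het library. It is also the gene of the sort, and had 19.0 FPKM in LacZ-positive cells and 9.10 FPKM in LacZ-negative cells. Keratinocyte and bulge markers were abundant in all 4 libraries, with Krt5 between 5272 and 8690 FPKM and Cd34 between 223 and 752 FPKM, except that the bulge keratin Krt15 is listed at 0 in the LacZ-negative library. The median difference of genes that reached 5 FPKM in both libraries, called the pair's median below, was 0.07 in the first pair and -0.17 in the second.

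The ligand gene was listed at or near 0 in each library. Shh, the Hedgehog ligand of skin, is listed at 0 in the cKO library and at 0.00891 FPKM in the Het library, and at 0 in both LacZ libraries. It passed the minimum of 1 FPKM in no library, so no difference is given for it. The interval of the table that holds Shh (mm9 chromosome 5, 28783354 to 29260535) is given to 4 genes. The other mammalian Hedgehog ligands were also under 1 FPKM: Ihh lay between 0.0686 and 0.142 FPKM and Dhh between 0.115 and 0.345 FPKM. An exact 0 in such a table can also be a failed estimate, so Shh is described only as listed at 0.

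The other 8 genes passed the minimum in both pairs. In the cKO library the response genes Gli1, Ptch1 and Hhip were all lower than in the Het library, while the coreceptor gene Gas1 and the transducer gene Smo lay close to their Het levels and Gli3 was higher. In LacZ-positive cells Gas1 and Gli1 were lower than in LacZ-negative cells, and Ptch1 hardly differed between them. In bulk RNA, fewer cells that express a gene and less of its RNA per cell cannot be told apart.

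**Figure D1:**
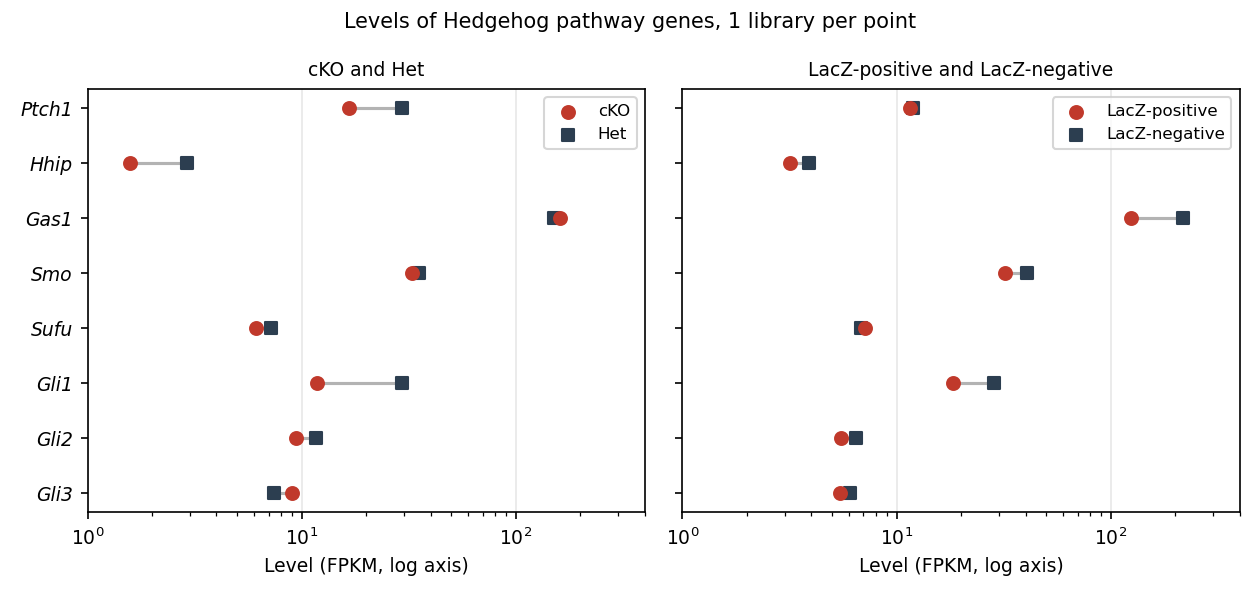
Levels of the 8 Hedgehog pathway genes that passed 1 FPKM, in FPKM on a log axis, with a circle for the cKO or LacZ-positive library and a square for the Het or LacZ-negative library; each point is 1 library and Shh is not drawn. Gas1 was the highest of them in all 4 libraries, and the widest gap is that of Gli1, at 11.8 FPKM in the cKO library and 29.4 FPKM in the Het library.

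Gli1 is the GLI factor that acts mainly as an activator and whose own transcription depends on the signal. It stood at 11.8 FPKM in the cKO library and 29.4 FPKM in the Het library, a log2 difference of -1.25. Without the pseudocount the FPKM ratio was 0.402, and the authors' deposited table gives the same comparison as -1.32 on the log2 scale. Of the 13014 genes measured in this pair, 1.66% had a difference as low as that of Gli1 or lower. Of the LacZ libraries, Gli1 stood at 18.3 FPKM in LacZ-positive and 28.5 FPKM in LacZ-negative cells, a log2 difference of -0.61, or -0.44 relative to the pair's median. There 9.48% of 13283 measured genes lay as low or lower. The interval of Gli1 (ENSMUSG00000025407, mm9 chromosome 10, 126759171 to 126778645) is shared with Arhgap9, so fragments of the neighbour could enter its value. Arhgap9 itself was listed at 1.37 FPKM in the cKO library and 1.83 FPKM in the Het library, and at 0.734 FPKM in LacZ-positive and 1.38 FPKM in LacZ-negative cells.

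Ptch1, the receptor that restrains the pathway and is transcribed in response to it, stood at 16.6 FPKM in the cKO library and 29.4 FPKM in the Het library. The log2 difference was -0.79, short of the 2-fold line, and 3.13% of measured genes lay as low or lower. LacZ-positive cells had 11.5 FPKM of it and LacZ-negative cells 11.9 FPKM, a difference of -0.04 that turned to 0.13 relative to the pair's median and to 0.16 with upper-quartile scaling. Gli1 and Ptch1 thus stood at nearly the same level in the Het library, but not in the other libraries. Ptch1 (ENSMUSG00000021466, mm9 chromosome 13, 63610260 to 63674474) shares its interval with no other gene of the table.

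Hhip encodes a membrane protein that binds Hedgehog ligands and keeps them from Patched, and it is the other feedback inhibitor among the 9 genes. It was the lowest of the measured members in every library, at 1.57 FPKM in the cKO library and 2.91 FPKM in the Het library. The log2 difference was -0.60 with the pseudocount of 1, which compresses a ratio at such levels. It was -0.89 without a pseudocount and -0.27 with one of 5, and Hhip falls out under a minimum of 5 FPKM. In LacZ-positive cells Hhip stood at 3.18 FPKM, against 3.92 FPKM in LacZ-negative cells, a difference of -0.24, or -0.07 relative to the pair's median.

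The promoters of Ptch1 and Hhip are shown because both genes were lower with Gli1 in the cKO library, and that of Gas1 because it had the largest difference among the 9 genes in the LacZ pair. Each runs from 250 bases before to 50 bases after the start of the gene in RefSeq (GRCm38.p6), written 5′ to 3′ on the gene's strand. Of the 9 genes, 7 had an entry there, each with a single start, so any other start of a gene was not searched. Gli1 and Shh had no entry, so their promoters were not searched. Capitals mark CCACCC or its reverse complement, the core of the GLI motif, which was added to the search after the values were seen.
Ptch1, chr13:63565686-63565985, minus strand: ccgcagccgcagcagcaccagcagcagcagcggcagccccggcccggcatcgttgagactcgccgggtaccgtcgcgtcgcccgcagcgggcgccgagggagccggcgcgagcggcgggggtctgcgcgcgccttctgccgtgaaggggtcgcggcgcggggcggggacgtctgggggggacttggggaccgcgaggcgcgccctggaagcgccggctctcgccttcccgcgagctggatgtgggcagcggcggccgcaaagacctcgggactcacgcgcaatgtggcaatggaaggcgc
Hhip, chr8:80057959-80058258, minus strand: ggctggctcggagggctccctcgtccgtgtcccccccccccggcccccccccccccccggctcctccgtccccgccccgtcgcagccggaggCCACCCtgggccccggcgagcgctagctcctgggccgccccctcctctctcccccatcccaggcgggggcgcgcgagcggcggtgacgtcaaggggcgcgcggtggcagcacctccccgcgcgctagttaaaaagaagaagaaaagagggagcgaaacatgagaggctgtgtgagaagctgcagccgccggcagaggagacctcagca
Gas1, chr13:60177486-60177785, minus strand: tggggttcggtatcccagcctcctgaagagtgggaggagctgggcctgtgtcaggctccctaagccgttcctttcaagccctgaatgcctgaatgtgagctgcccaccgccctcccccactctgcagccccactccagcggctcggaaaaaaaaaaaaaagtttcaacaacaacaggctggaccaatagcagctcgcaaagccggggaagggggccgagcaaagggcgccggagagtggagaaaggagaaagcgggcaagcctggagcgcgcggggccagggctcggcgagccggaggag
The full GLI motif GACCACCCA was searched on both strands and was found in none of the 7 promoters. It was found in 0.253% of the 32851 promoters of the table. Neither CTTTGAA nor CTTTGAT, letters of the motif of the TCF/LEF factors that work with β-catenin, was found on either strand of the 7 promoters, against 8.65% of all promoters with at least 1 of them. The shorter core, which lies inside the full GLI motif, occurred once in the promoter of Hhip, with its first base 158 bases before the start, and not in those of Ptch1 and Gas1. It also occurred in the promoters of Gli2, Gli3 and Smo, and 31.5% of all promoters hold it. The promoter of Ptch1 held 47 CpG pairs and that of Hhip held 30, where the median of all promoters was 7. The others searched were above that median too, with 39 in Gli3, 28 in Gli2, 17 each in Gas1 and Smo, and 12 in Sufu.

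Gas1, a membrane-anchored coreceptor that helps cells respond to Hedgehog ligand, was the most abundant of the 9 genes in each library. It stood at 160 FPKM in the cKO library and 150 FPKM in the Het library, a log2 difference of 0.09. LacZ-positive cells had 124 FPKM of it and LacZ-negative cells 218 FPKM, a difference of -0.81, or -0.64 relative to the pair's median. Of the measured genes, 4.41% lay as low or lower. Gas1 (ENSMUSG00000052957, mm9 chromosome 13, 60275765 to 60278726) is alone in its interval.

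Smo, the transducer that Patched restrains, was second in level in each library. It stood at 32.8 FPKM in the cKO library and 35.2 FPKM in the Het library, a log2 difference of -0.10. In LacZ-positive cells it stood at 32.2 FPKM, against 40.5 FPKM in LacZ-negative cells, a difference of -0.32, or -0.15 relative to the pair's median. Sufu, the cytoplasmic inhibitor of the GLI factors, stood at 6.14 FPKM in the cKO library and 7.15 FPKM in the Het library, a difference of -0.19. It was the only measured member higher in LacZ-positive cells, at 7.11 FPKM against 6.81 FPKM in LacZ-negative cells, a difference of 0.05. With centring on the median or upper-quartile scaling, Ptch1 and Gli3 were on that side too.

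Gli2, the main activator downstream of Smoothened, stood at 9.45 FPKM in the cKO library and 11.6 FPKM in the Het library, a log2 difference of -0.27. Gli3, which is processed to a repressor when no ligand is bound, stood at 9.05 FPKM in the cKO library and 7.40 FPKM in the Het library, a difference of 0.26 and the highest among the members of that pair. Gli2 stood at 5.50 FPKM in LacZ-positive and 6.44 FPKM in LacZ-negative cells, a difference of -0.20, or -0.03 relative to the pair's median and -0.0093 with upper-quartile scaling. Gli3 stood at 5.44 FPKM in LacZ-positive and 6.04 FPKM in LacZ-negative cells. Its difference of -0.13 turned to 0.04 relative to the pair's median and to 0.06 with upper-quartile scaling. The GLI factors thus went different ways in the first pair, with Gli1 past the 2-fold line and Gli2 and Gli3 within it on either side of 0. The sides of Gli2 and Gli3 stayed as they are in that pair under the alternatives of centring and upper-quartile scaling.

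**Figure D2:**
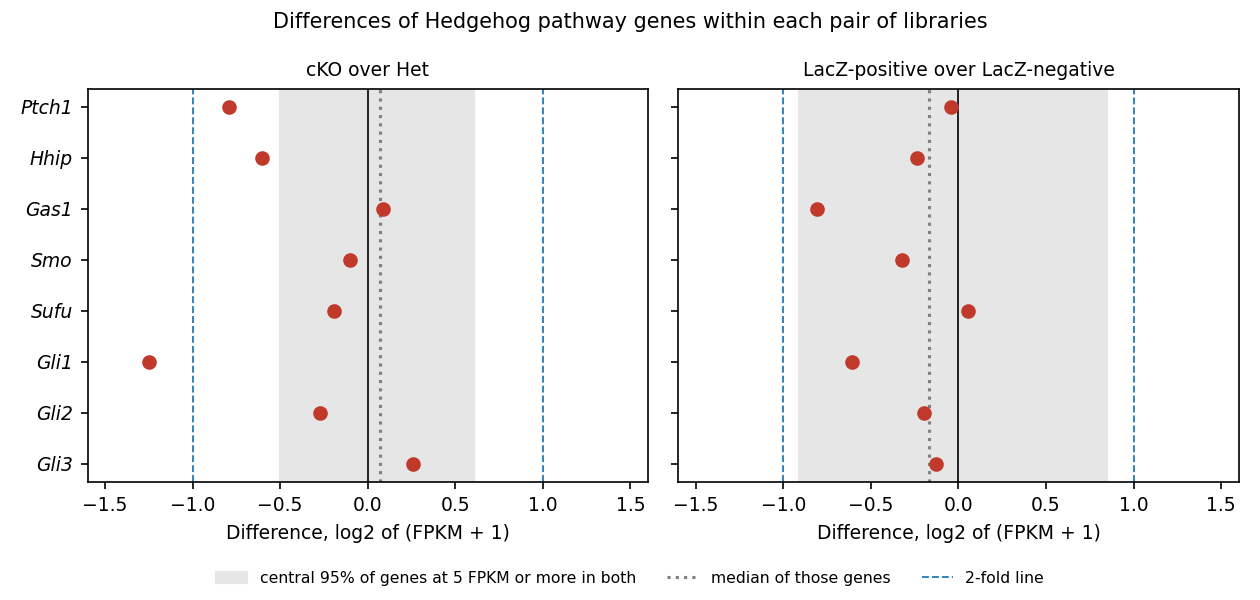
Difference of each measured Hedgehog pathway gene in log2 of (FPKM + 1), for the cKO library over the Het library and for LacZ-positive over LacZ-negative cells; the shaded band holds the central 95% of genes that reached 5 FPKM in both libraries and dashed lines mark 2-fold. Gli1, at -1.25 in the first pair, is the only point beyond a dashed line, and in the second pair all points lie within the band.

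The order of levels within a library was largely shared. In the cKO and Het libraries it ran Gas1, Smo, Ptch1, Gli1, Gli2, Gli3, Sufu, Hhip and Shh. In both LacZ libraries Gli1 stood above Ptch1 and Sufu above Gli2 and Gli3, with the other places the same. Some neighbours were nearly level, such as Ptch1 and Gli1 in the Het library, both at 29.4 FPKM, and Gli2 and Gli3 in LacZ-positive cells, at 5.50 and 5.44 FPKM. With no replicate, no spread is at hand to set such steps against. Levels of the 2 tables stand side by side only, since the tables may have been scaled separately.

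A ratio of 2 genes inside a library does not depend on how the library was scaled. The level of Gli1 was 1.30 times that of Gli3 in the cKO library and 3.97 times in the Het library. It was 3.37 times that of Gli3 in LacZ-positive and 4.71 times in LacZ-negative cells. The cKO library was thus the 1 of the 4 in which the activator Gli1 and Gli3 stood near the same level. Against Smo, Gli1 stood at 0.360 in the cKO library and 0.834 in the Het library, and at 0.569 in LacZ-positive cells and 0.702 in the LacZ-negative cells. Ptch1 stood at 0.506 of the level of Smo in the cKO library and 0.835 in the Het library. That ratio was 0.358 in LacZ-positive cells and 0.294 in the LacZ-negative cells, the opposite side to Gli1 over Smo. Gli1 over Ptch1 was 0.712 in the cKO library and 0.999 in the Het library, and 1.59 in LacZ-positive cells and 2.39 in the LacZ-negative cells.

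Counted together, 1 of the 8 measured members was past the 2-fold line on the lower side in the cKO library, and none on the higher side. Of all measured genes of that pair, 2.29% were lower and 1.8% higher by 2-fold or more. Without regard to size, 6 of the 8 were lower, against 39.1% of all measured genes, and the median of the 8 was -0.23 beside 0.06 over all measured genes. With differences centred on the pair's median, the same count of 6 stood beside 52.4% of all measured genes. None of the 8 was past the line in either direction in LacZ-positive cells, where 2.6% of measured genes were lower and 4.67% higher by 2-fold or more. There 7 of the 8 were lower, against 63.4% of all measured genes, and the median of -0.22 stood beside -0.13 over all measured genes. Where differences were centred, Ptch1 and Gli3 turned and 5 of the 8 were lower, against 45.8% of all measured genes, and with upper-quartile scaling 5 of the 8 were lower, against 42.6%. Relative to the pair's median, the median of the 8 was -0.05.

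The remaining genes of the pathway were read from lists by role that hold 58 further symbols, of which 54 are in the tables; the other 4, Disp1, Grk2, Foxf1 and Foxl1, were not analysed here under those symbols, and Adrbk1 and Foxf1a are older symbols of Grk2 and Foxf1. Of these 54 genes, 49 were measured in the first pair and 48 in the second. In the cKO library 1 of 49 was past the 2-fold line on the lower side and none on the higher side, beside 2.29% and 1.8% of all measured genes. In LacZ-positive cells 2 of 48 were lower and 1 was higher, beside 2.6% and 4.67%. Their medians of 0.01 and -0.19 lay close to those over all measured genes.

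**Figure D3:**
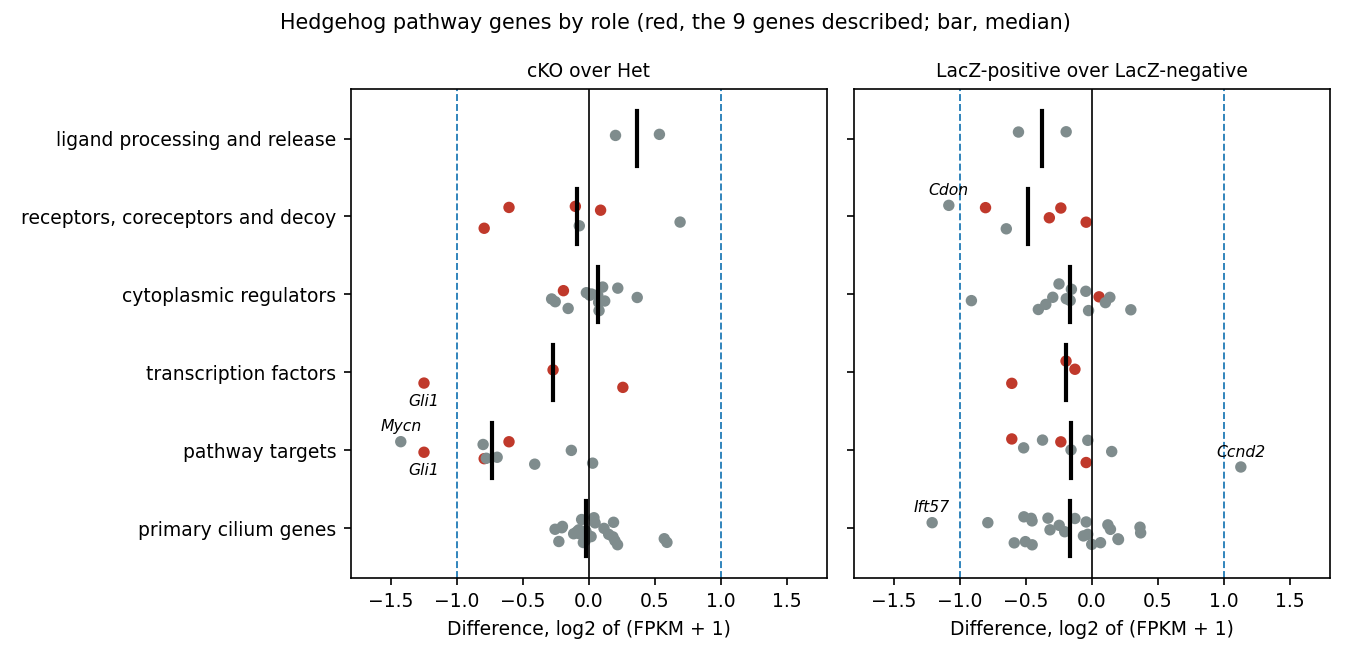
Difference in log2 of (FPKM + 1) for each measured gene of the Hedgehog pathway lists, by role, for the cKO over the Het library and for LacZ-positive over LacZ-negative cells; black bars are list medians, dashed lines mark 2-fold, and height within a row is arbitrary. Genes beyond the lines are named: Gli1 and Mycn in the first pair, and Cdon, Ccnd2 and Ift57 in the second; ligands are not drawn since none reached 1 FPKM.

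Among genes that release the ligand, 2 of the 3 in the tables were measured. Scube2, whose product helps free the ligand from the cell surface, stood at 11.2 FPKM in the cKO library and 9.61 FPKM in the Het library, and at 5.04 FPKM in LacZ-positive and 7.88 FPKM in LacZ-negative cells. Hhat, the enzyme that attaches palmitate to the ligand, stood at 3.39 FPKM in the cKO library and 2.03 FPKM in the Het library. LacZ-positive cells had 1.67 FPKM of it and LacZ-negative cells 2.06 FPKM. None of these differences reached 2-fold.

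All 6 genes of receptors, coreceptors and decoy described here were measured, and all 6 were lower in LacZ-positive cells, beside 63.4% of all measured genes. Ptch1 turned to the other side when differences were centred or scaled to the upper quartile. The coreceptors Cdon, Boc and Gas1 had the lowest log2 differences of that list for LacZ-positive over LacZ-negative cells. Cdon stood at 17.2 FPKM in LacZ-positive and 37.6 FPKM in LacZ-negative cells, a log2 difference of -1.08, or -0.91 relative to the pair's median, which falls inside the 2-fold line. Boc stood at 24.6 FPKM in LacZ-positive and 39.2 FPKM in LacZ-negative cells, a difference of -0.65. In the first pair the coreceptors did not move together: Cdon stood at 54.2 FPKM in the cKO library and 33.2 FPKM in the Het library, a difference of 0.69, while Boc stood at 53.8 FPKM in the cKO library and 56.6 FPKM in the Het library, a difference of -0.07. The interval of Cdon is given to 3 genes, and the 5S rRNA row in it also differed, at 77.9 FPKM in the cKO library and 26.1 FPKM in the Het library, and at 33.7 FPKM in LacZ-positive and 72.4 FPKM in LacZ-negative cells. The part of shared reads in the values of Cdon was not tested. Some bulge markers were lower in LacZ-positive cells beside the coreceptors: Cd34 stood at 223 FPKM in LacZ-positive and 516 FPKM in LacZ-negative cells, a difference of -1.21. Tbx1 was at -1.31 and Lhx2 at -0.74. Of the 11 bulge and outer root sheath markers, 6 were lower in LacZ-positive cells, beside 63.4% of all measured genes, and 5 higher. Their summed levels were 14659 FPKM in LacZ-positive and 11872 FPKM in LacZ-negative cells. The side of these sums rests on Krt15, at 5951 FPKM in LacZ-positive cells and listed at 0 in LacZ-negative cells. The part of these markers in the values of the coreceptors and Gli1 was not tested.

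The cytoplasmic regulators, among them protein kinase A subunits and the kinases that mark GLI proteins, held none past the 2-fold line in either pair, with 15 measured in each. Of all measured genes, 2.29% were lower and 1.8% higher past that line in the first pair. In the second, 2.6% were lower and 4.67% higher, so few or none of 15 genes would pass at such shares. Csnk1a1, a casein kinase gene, stood at 146 FPKM in the cKO library and 138 FPKM in the Het library, and at 201 FPKM in LacZ-positive and 205 FPKM in LacZ-negative cells. Prkar1a, a regulatory subunit gene of protein kinase A, stood at 77.6 FPKM in the cKO library and 74.0 FPKM in the Het library. LacZ-positive cells had 80.3 FPKM of it and LacZ-negative cells 90.1 FPKM. The list's medians were 0.07 and -0.16, the same within 0.01 as the pairs' medians.

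The list of pathway targets stood lower in the cKO library. This list holds Gli1, Ptch1 and Hhip beside genes known as targets in several tissues, which other signals also drive. Of its 10 measured genes 9 were lower in the cKO library, against 39.1% of all measured genes, and 2 were lower past the 2-fold line, against 2.29%. The median was -0.73 beside 0.06 over all measured genes, and -0.41 with a pseudocount of 5, where 1 gene stayed past the line. Mycn, a proto-oncogene of proliferating progenitors, stood at 0.542 FPKM in the cKO library and 3.14 FPKM in the Het library, a log2 difference of -1.42 that falls inside the line with a pseudocount of 5. The D cyclin gene Ccnd1, which is also a known Wnt target, stood at 23.8 FPKM in the cKO library and 42.2 FPKM in the Het library. In the LacZ pair 7 of 9 measured genes were lower, against 63.4% of all measured genes, and the list's median was -0.16 beside -0.13 over all measured genes, or 0.01 relative to the pair's median. There Ccnd2, the gene of another D cyclin, stood at 43.0 FPKM in LacZ-positive and 19.1 FPKM in LacZ-negative cells, a difference of 1.13 that falls inside the line with a pseudocount of 5, while Gli1 was at -0.61. The interval of Ccnd2 is shared with 9330179D12Rik, listed under 1 FPKM in all 4 libraries.

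All 24 genes of the primary cilium list, the organelle through which the signal passes, were measured in both pairs. None differed by 2-fold in the first pair, beside 2.29% of all measured genes lower and 1.8% higher, and the list's median was -0.02. In the second, 1 of 24 was past the line on the lower side, beside 2.6% of all measured genes, and the median of -0.17 equalled the pair's median within 0.01. That gene was Ift57, a component of the transport particle of cilia, at 20.9 FPKM in LacZ-positive and 49.7 FPKM in LacZ-negative cells, a difference of -1.21 that falls inside the line with upper-quartile scaling. In the first pair Ift57 stood at 74.9 FPKM in the cKO library and 49.4 FPKM in the Het library, a difference of 0.59. Arl13b, a small GTPase gene of the cilium, stood at 38.3 FPKM in the cKO library and 37.9 FPKM in the Het library, and at 30.8 FPKM in LacZ-positive and 28.2 FPKM in LacZ-negative cells.

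Markers of dividing cells moved with Gli1 in the first pair and against it in the second. All 5 of them (Mki67, Top2a, Cdk1, Ccna2 and Ccnb1) were lower past the 2-fold line in the cKO library, beside 2.29% of all measured genes. Their summed level was 4.60 FPKM there and 34.8 FPKM in the Het library. All 5 were higher past that line in LacZ-positive cells, beside 4.67% of all measured genes. Their summed level was 118 FPKM there, against 17.4 FPKM in LacZ-negative cells. Gli1 was lower in the cKO library and lower in LacZ-positive cells. The part of dividing cells in the values of Gli1, Ptch1 and Hhip was not tested.

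**Figure D4:**
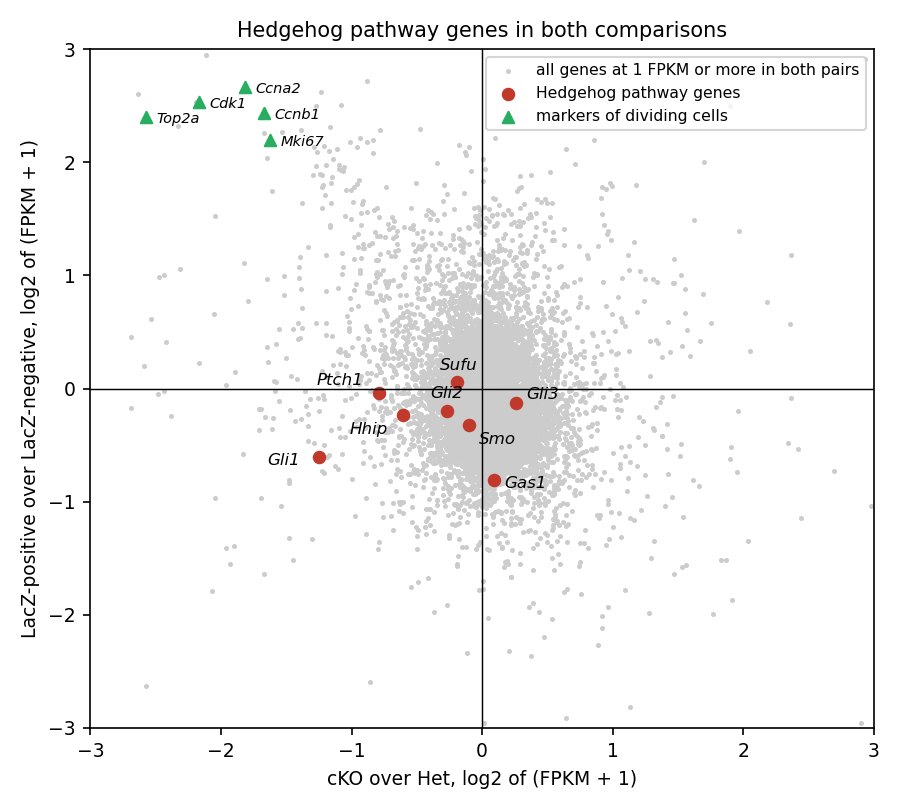
Difference in log2 of (FPKM + 1) for the cKO over the Het library (horizontal axis) and for LacZ-positive over LacZ-negative cells (vertical axis), with 1 grey point per gene measured in both pairs, red circles for Hedgehog pathway genes and green triangles for markers of dividing cells; 115 of 12499 genes lie beyond the axes. The 5 markers sit at the upper left, while Gli1 lies at the lower left at -1.25 and -0.61, and Gas1 differs in the second pair only by more than 0.5.

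Other parts of the follicle were read in the same way. Hair germ and matrix markers had 6 of 7 genes measured in the first pair. All 6 were lower in the cKO library, beside 39.1% of all measured genes. The list summed to 44.9 FPKM there and 62.2 FPKM in the Het library. In LacZ-positive cells 4 of 5 measured were lower, beside 63.4% of all measured genes. The list summed to 51.6 FPKM there and 91.4 FPKM in LacZ-negative cells. Cdh3 was higher, at 26.4 FPKM in LacZ-positive and 23.8 FPKM in LacZ-negative cells. Upper follicle markers, a region known to hold Gli1-expressing cells, summed to 58.4 FPKM in the cKO library and 79.2 FPKM in the Het library. Lgr6 alone set that side, at 2.04 FPKM in the cKO library and 26.2 FPKM in the Het library. Without it the sums were 56.3 FPKM in the cKO library and 53.0 FPKM in the Het library. Of the rest only Lrig1 was higher in the cKO library, at 37.2 FPKM, against 30.7 FPKM in the Het library. Krt79 was lower, at 18.5 FPKM in the cKO library and 21.7 FPKM in the Het library. Gata6, under 1 FPKM in both, was lower too. The upper follicle markers summed to 440 FPKM in LacZ-positive and 155 FPKM in LacZ-negative cells. All 4 measured were higher in LacZ-positive cells, where 63.4% of all measured genes were lower. Without Lgr6 they summed to 405 FPKM in LacZ-positive and 143 FPKM in LacZ-negative cells. Gli1 had the sign of the upper follicle sum in the first pair, where Lgr6 alone set it, and the opposite sign in the second. It had the sign of the hair germ and matrix sum in both pairs. In the second pair it had the opposite sign to Cdh3. The part of these cells in the values of Gli1 was not tested.

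Hedgehog response genes are also strong in the dermal papilla and other mesenchyme, so those markers were read beside them. The 8 dermal papilla markers summed to 26.0 FPKM in the cKO library and 9.24 FPKM in the Het library, and to 2.91 FPKM in LacZ-positive and 2.06 FPKM in LacZ-negative cells. Crabp1 was the only one of them to reach 1 FPKM, at 25.5 FPKM in the cKO library and 8.77 FPKM in the Het library, the opposite side to Gli1. Sox2 is listed at 0 in all 4 libraries. The 6 dermal fibroblast markers summed to 23.1 FPKM in the cKO library and 14.7 FPKM in the Het library, and to 10.9 FPKM in LacZ-positive and 18.1 FPKM in LacZ-negative cells. Most of these sums came from the collagen genes. Col1a1 stood at 10.3 FPKM in the cKO library and 3.72 FPKM in the Het library, a difference of 1.26, and at 6.29 FPKM in LacZ-positive and 13.1 FPKM in LacZ-negative cells. Col1a2 stood at 12.5 FPKM in the cKO library and 10.8 FPKM in the Het library, and at 2.38 FPKM in LacZ-positive and 4.34 FPKM in LacZ-negative cells. Dcn, the third fibroblast marker measured in the LacZ pair, ran opposite to Col1a1 and Col1a2. Its log2 difference there was 1.15, past the 2-fold line on the higher side. The levels behind it were low: 2.16 FPKM for LacZ-positive cells, 0.423 FPKM for LacZ-negative ones. Neither library of the first pair had 1 FPKM of Dcn. The receptor gene Pdgfra lay between 0.0196 and 0.204 FPKM. The 5 leukocyte markers summed to 8.20 FPKM in the cKO library and 4.92 FPKM in the Het library, and to 4.56 FPKM in LacZ-positive and 3.41 FPKM in LacZ-negative cells. The 3 endothelial markers summed to at most 0.324 FPKM in a library and the 4 nerve and Schwann markers to at most 5.25 FPKM. The 5 melanocyte markers summed to between 26.7 and 46.8 FPKM, most of it from Mitf in the first pair and from Dct and Mitf in the second. The part of these cells in the differences of the 9 genes was not tested.

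Genes with the most similar pair of differences were found among 8339 other genes at 5 FPKM or more in at least 1 library of each pair and above 0 in all 4. Likeness was the straight-line distance between the pairs of log2 differences, so it rests on 2 values from 4 libraries. Nearest to Gli1 was Synpo, an actin-associated protein gene, at -1.23 and -0.73 in the first and second pair, a distance of 0.12. Fam180a, Fkbp10, Igfbp5 and Tns4 followed at distances of 0.13 to 0.26. Nearest to Ptch1 was Ccnd1, at -0.80 and -0.03, a distance of 0.02. Moxd1, Il31ra, Slco4a1 and Gpr56 followed at distances of 0.03 to 0.07. None of these 10 genes is another of the 9 Hedgehog pathway genes.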

How the data were processed

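RNA sequencing libraries of 4 sorted mouse populations were used, with 1 library per group taken from the labels; the ChIP samples were left out. The authors gave FPKM in 2 gene tables, 1 per pair, per the file headers, and in the first also their log2 ratio of the cKO and Het values, which is quoted for Gli1 only. Cufflinks 2.1.1, TopHat and TopHat2 2.0.4, with mm9 and GRCm38, are listed without roles in the submitters' processing notes. Coordinates are the tables' own, taken as mm9. The sources used here do not give filters or the treatment of strand. FPKM depend on the library total, so a few abundant features can shift all others.

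Symbols turned into dates were restored through Ensembl identifiers, and rows of a symbol were summed. Differences are log2 of (FPKM + 1) for genes reaching 1 FPKM in at least 1 library of a pair. No test was made, since each group is 1 library. The members, lists and rules were chosen with earlier results of these data known. Named were all 9 members; of each list the genes past 2-fold or else the 2 highest; and the 5 genes nearest to Gli1 and to Ptch1. Cdon, Boc and Ccnd1, and values of markers and interval partners, were added where a count or another pair turned on them. Planned protein comparisons were not made, and 1 gene of the fixed lists is not reported here. Alternatives were a pseudocount of 0.1 or 5, a minimum of 5 FPKM or none, centring on the pair's median, scaling to the upper quartile, only the highest row of a symbol, no small RNA, Gm, LOC or Rik symbols, and genes alone in their interval; leaving out genes listed at 0 and the GLI core were added after the values were seen. The steps were run on a library set against a copy of itself in which some genes were changed by a fixed factor. No noise was added, so that run checks the code only. Python 3.11.15 with pandas 2.3.3, NumPy 2.4.6 and Matplotlib 3.10.9 was used.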

Additional observations from a re-analysis of the deposited data

How the results depend on the processing

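No paired analysis was possible because each group has 1 library and no test was made. Over the alternatives, Gli1 stayed past the 2-fold line in the first pair, between -1.31 and -1.03, but it leaves the count when only genes alone in their interval are kept, where 0 members are past the line. Of 156 member values under the alternatives, 152 kept their direction and their side of the line. The other 4 are Ptch1 and Gli3 in the LacZ pair, which turned to 0.13 and 0.041 with centring and to 0.16 and 0.057 with upper-quartile scaling. Each member has 1 row, so settings that only choose which genes or rows are kept could not change a member's value. Only the pseudocounts, centring and upper-quartile scaling could, so the count of 152 holds many values fixed in advance. The medians of the Hedgehog members moved by less than the typical difference between the libraries of the pair (a median size of 0.14 and 0.27 on the log2 scale).

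For the other pathway genes, the count lower by 2-fold in the cKO library (1) was 2 with pseudocount 0.1, 0 with pseudocount 5 and 0 at a minimum of 5 FPKM. Their median in that pair (0.0086) was -0.059 with centring and -0.047 with upper-quartile scaling. In the LacZ pair the median (-0.19) was 0.021 with upper-quartile scaling. There the count lower (2) was 1 with pseudocount 5, 1 with centring, 0 with upper-quartile scaling and 0 for genes alone in their interval, and the count higher (1) was 0 with pseudocount 5 and 0 for genes alone in their interval. Among single lists, the target list's median in the first pair (-0.73) was -0.41 with pseudocount 5, and its count lower by 2-fold (2) was 1 with pseudocount 5, at a minimum of 5 FPKM and for genes alone in their interval. The following medians changed sign. In the first pair, cytoplasmic regulators came to -3.8e-05 with centring and cilium genes to 0.039 for genes alone in their interval. In the LacZ pair, centring gave 0.0050 for cytoplasmic regulators, 0.012 for targets and 0.0022 for cilium genes, and upper-quartile scaling gave 0.031, 0.11 and 0.024. The cause of these moves was not tested.

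Counts over all genes moved by more than 1.5 times under some settings. In the first pair 234 were higher and 298 lower in the cKO library by 2-fold or more. These were 144 and 159 with pseudocount 5, 96 and 141 without small RNA, Gm, LOC and Rik symbols, 108 and 131 for genes alone in their interval, and 140 and 195 without genes listed at 0. In the LacZ pair 620 were higher and 346 lower in LacZ-positive cells. The count lower was 528 with pseudocount 0.1, 224 with centring and 215 with upper-quartile scaling. Both counts were 282 and 178 with pseudocount 5, 405 and 195 without those symbols, and 315 and 174 for genes alone in their interval. Depth is unknown, so no limit of detection can be given for Shh.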
